A study of Homo sapiens with 2 samples.

Results

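The genes followed here, 10 in number, belong to the neuronal-type microtubule system: the microtubule-associated proteins MAP2, MAP1A, MAP1B, MAP4 and MAPT, the tubulins TUBB3, TUBB2B and TUBA1A, the stathmin STMN1 and doublecortin, DCX. They were taken by gene symbol from a table of 28038 genes, each with at least 1 count in 1 library or the other. Of the 10, 9 were listed, and all 9 had at least 50 counts over both libraries, the minimum used here, which 14157 genes passed. DCX was not among the listed genes and is taken to have had no counts. The set was chosen by function with the counts and ratios of these same libraries already in view, so its values are given as a description and none of them was tested.

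Poly(A) RNA was sequenced from 1 culture that carried a blank viral vector, the control, and from 1 culture that overexpressed IGF2BP3, a protein that binds transcripts carrying the m6A modification. Both were labelled as OVCAR-3, an established line of human ovarian carcinoma cells; whether either was a single clone is not given in the sources used here. Depth was 43190215 counts for the control and 48017861 for the overexpression culture. IGF2BP3 itself stood at 67.9 and 133 CPM (counts per 1000000 counts after scaling), a ratio of 1.96 (1.88 to 2.05). Of 15 epithelial markers chosen, 11 were listed and only KRT18 reached 10 CPM, while all 6 listed of 12 chosen ovarian serous carcinoma markers were below 10 CPM in both libraries. The epithelial markers summed to 118 and 116 CPM, with CDH1 at 2 counts in each library and EPCAM at 57 and 56. All 12 mesenchymal and fibroblast markers chosen were listed, and 3 reached 10 CPM. In the control and overexpression library VIM stood at 2175 and 2149 CPM, ZEB1 at 57.1 and 58.9 and CDH2 at 13.1 and 12.5. The other 9 were below 10 CPM in both libraries. With 1 library per group there was no replicate error. Every ratio below is therefore between these 2 libraries, and its 95% Clopper-Pearson interval covers counting error only. In RNA from a whole culture, fewer cells of a type and less RNA per cell cannot be told apart.

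Microtubules are hollow polymers of alpha- and beta-tubulin, and cells choose among several genes, or isotypes, for each subunit. Structural microtubule-associated proteins bind along the polymer and stabilise it, and MAP2 (mainly dendritic), tau (encoded by MAPT, mainly axonal), MAP1A and MAP1B are known best from neurons, whereas MAP4 is the widespread member. Stathmins work in the other direction by holding free tubulin and promoting disassembly, and doublecortin binds microtubules in migrating young neurons. TUBB3 and TUBB2B are neuronal-type beta-tubulins that also appear in many tumour lines.

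The tubulin isotypes are so alike in sequence that counts cannot always be split between them. The last 120 coding bases of 4 beta-tubulin transcripts, stop codon included, are therefore shown from GENCODE release 29 on GRCh38. Capitals mark the bases that lie in no 31-base word of the coding sequence shared with another annotated gene.
TUBB3: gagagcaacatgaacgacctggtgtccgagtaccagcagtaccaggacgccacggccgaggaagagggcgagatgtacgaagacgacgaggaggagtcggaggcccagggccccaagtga
TUBB2A: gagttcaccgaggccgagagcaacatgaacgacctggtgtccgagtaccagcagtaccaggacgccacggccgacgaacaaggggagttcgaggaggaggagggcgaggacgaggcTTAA
TUBB2B: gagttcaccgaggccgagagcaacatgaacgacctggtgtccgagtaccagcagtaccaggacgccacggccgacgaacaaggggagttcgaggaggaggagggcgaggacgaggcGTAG
TUBB4B: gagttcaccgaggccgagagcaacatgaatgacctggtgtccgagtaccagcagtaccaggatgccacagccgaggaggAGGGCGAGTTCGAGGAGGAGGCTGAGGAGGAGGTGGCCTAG
TUBB2A and TUBB2B had only 4 such bases each, at their ends. Of the 31-base words of all TUBB2B transcripts, 46.1% also occurred in TUBB2A. TUBB3 had none in this stretch. A gene model that overlaps it on the same strand, AC092143.1, held 35.3% of all TUBB3 words, against 5.19% for TUBB2A. TUBB4B had 41 capitals. Of the TUBA1A words, 23.8% occurred in TUBA1B and 20.6% in TUBA1C. The values of TUBB2B and TUBA1A are thus uncertain as to the isotype. Those of TUBB3 are uncertain mainly as to the overlapping model AC092143.1, and less as to the isotype. AC092143.1 was not among the listed genes, and how reads of the shared stretch were counted is not known. The MAP genes shared little: 0.0851% of the words of MAP2, 0.0789% of those of MAP1B, 0.952% of those of MAPT, 1.21% of those of MAP4 and none of those of MAP1A occurred in another gene.

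MAP2 was the member that stood highest in the overexpression library relative to the control. MAP2 (ENSG00000078018, on GRCh38 as all positions here, plus strand of chromosome 2 from 209424058 to 209734118) gave 1217 counts (28.1 CPM) in the control against 2798 (58.5 CPM) with IGF2BP3 overexpressed. The ratio was 2.08 with an interval of 1.95 to 2.23, and of 1.89 to 2.29 if counts are halved because both mates of a pair may have been counted. Its log2 ratio of CPM plus 1, the scale used for all differences here, was 1.03, the 51st highest of the 14157 measured genes. On that scale 1.02% of all measured genes passed 1.5-fold upward and 0.381% passed 2-fold upward. MAP2 was chosen with its ratio known, so nothing is read from its place among them. The 500 genes nearest to MAP2 in length had a median of 0.07, and removing it left 0.96. The only annotated gene overlapping MAP2 was RNA5SP118 on the opposite strand, with 1 and 0 counts.

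The transcripts nearest to MAP2 in both libraries at once, by distance in log2(CPM plus 1) over the 2 libraries, were CDK6 (a G1 kinase, distance 0.357), ARHGAP18 (0.376) and APAF1 (the apoptosome scaffold, 0.398). CDK6 stood at 25.2 and 46.5 CPM in the control and overexpression library, ARHGAP18 at 22.7 and 49.5, and APAF1 at 37.1 and 55.4. With 2 libraries such nearness says only that the pairs of levels were alike.

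**Figure D1:**
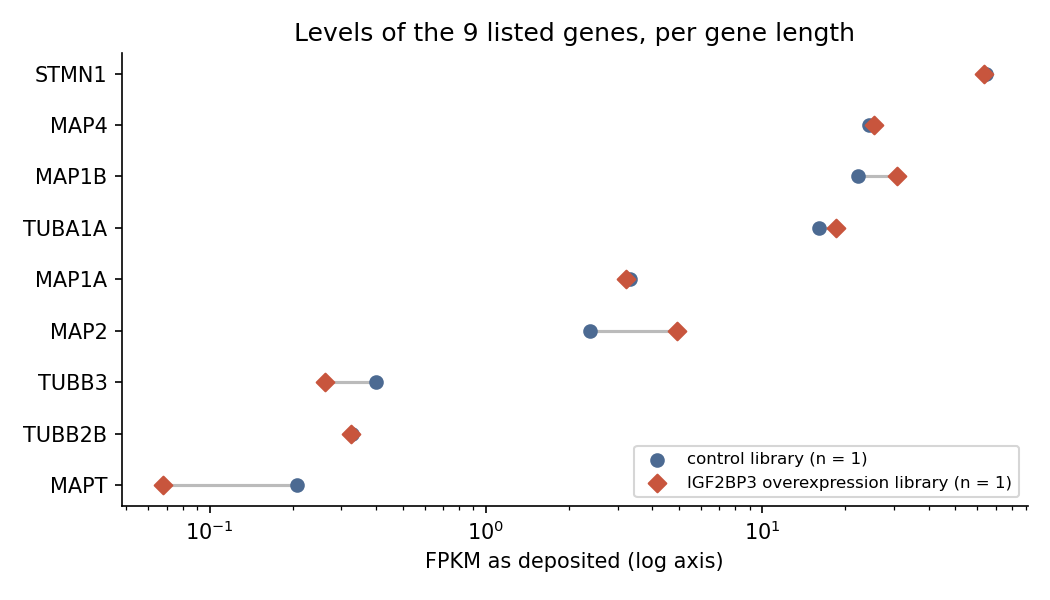
FPKM as deposited (horizontal log axis) of the 9 listed genes in the control library (circles) and the IGF2BP3 overexpression library (diamonds), 1 library each, joined by a grey line. MAP2 moves from 2.38 to 4.92 and MAPT from 0.206 to 0.0679, while the symbols of STMN1, MAP4, MAP1A and TUBB2B nearly coincide.

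IGF2BP3 is known to bind m6A-marked transcripts, and the core m6A motif GGACT was therefore located in MAP2. The longest MAP2 coding transcript, of 9711 bases, held 7 such sites, 5 of them in the coding part. They are shown with 10 bases on either side and the motif in capitals.
MAP2 site 1: gccactgcggGGACTtctaatttgc
MAP2 site 2: agcaggggaaGGACTtgtccgaagc
MAP2 site 3: aagaacaaaaGGACTggttcatcga
MAP2 site 4: tgttgaaacaGGACTcgttccctgt
MAP2 site 5: caggagtttaGGACTtggtggtagg
MAP2 site 6: tgacaaatcaGGACTgagtaaggag
MAP2 site 7: tcattaggatGGACTcgtgtctgat
Site 1 lay in the 5′ UTR and site 7 in the 3′ UTR. The density was 0.721 sites per kb. The median over 11597 measured protein-coding genes was 0.928, and 93.0% of these genes held at least 1 site. MAP1B, at 0.748 sites per kb, and MAP4, at 0.897, were also below the median, whereas TUBB3, at 1.01, MAPT, at 1.32, MAP1A, at 1.71, and STMN1, at 1.75, were above it. The longest transcripts of TUBB2B and TUBA1A held none. A motif is not a mark or a bound site, and neither was measured here. Counts were per gene, so the MAP2 transcripts present are not known, and a shorter one may lack some of the 7 sites.

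MAP4 was the most abundant of the 3 genes that share the MAP2 and tau type of microtubule-binding region. MAP4 (ENSG00000047849, minus strand of chromosome 3 from 47850690 to 48089272) gave 15727 counts (363 CPM) in the control against 18253 (381 CPM) with IGF2BP3 overexpressed, for a ratio of 1.05 (1.03 to 1.07). On the log2 scale this was 0.07, and the 500 genes nearest to it in length had a median of 0.06.

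MAPT went the opposite way to MAP2. MAPT (ENSG00000186868, plus strand of chromosome 17 from 45894382 to 46028334) gave 164 counts (3.78 CPM) in the control against 60 (1.25 CPM) with IGF2BP3 overexpressed, which is 0.331 times the control level (0.242 to 0.448, or 0.210 to 0.509 from halved counts). Its log2 ratio was -1.09, and 0.643% of all measured genes were 1.5-fold or more lower and 0.297% 2-fold or more. The value rests on few counts: the log2 ratio was -0.49 with a pseudocount of 5 CPM and -0.18 as FPKM plus 1, both short of 1.5-fold. NSF, the vesicle fusion ATPase 562335 bases away on the same strand, had 353 counts in the control and 1 in the overexpression library. No other measured gene within 1000000 bases of MAPT differed by 2-fold. The part of this neighbourhood in the MAPT value was not tested. Of the 5 annotated genes that overlap MAPT, among them the antisense transcript MAPT-AS1, none was listed.

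By FPKM, which is per gene length, the make-up of this trio shifted towards MAP2. MAP2 was 8.86% of the summed FPKM of MAP2, MAP4 and MAPT in the control and 16.2% in the overexpression library. MAP4 went from 90.4% to 83.6% and MAPT from 0.768% to 0.224%. As a share of counts, MAP2 was 7.11% (6.73 to 7.51) and 13.3% (12.8 to 13.7), with exact binomial intervals that cover counting error only. MAP4 FPKM was 10.2 times that of MAP2 in the control and 5.15 times in the overexpression library.

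MAP1A and MAP1B encode large proteins of 1 family, each cut into a heavy and a light chain. MAP1B (ENSG00000131711, plus strand of chromosome 5 from 72107234 to 72209570) gave 11986 counts (277 CPM) in the control against 18493 (386 CPM) with IGF2BP3 overexpressed. Its ratio of 1.40 (1.36 to 1.43, or 1.35 to 1.44 from halved counts) and log2 ratio of 0.48 fell short of the 1.5-fold mark, and it was the 246th highest of all measured genes. The 500 genes nearest to MAP1B in length had a median log2 ratio of 0.06, and removing that left 0.42.

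MAP1A (ENSG00000166963, plus strand of chromosome 15 from 43510958 to 43531620) gave 1529 counts (35.3 CPM) in the control against 1645 (34.4 CPM) with IGF2BP3 overexpressed. Its ratio was 0.974 (0.908 to 1.04), an interval that includes 1-fold. MAP1B FPKM was 6.66 times that of MAP1A in the control and 9.54 times in the overexpression library.

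MAP1B and MAP2, the pair with the highest ratios, are set side by side by 1 window each, although both have others. A window of each from 250 bases before to 50 after an annotated start is shown from RefSeq on GRCh38.p14. Capitals mark GC boxes (GGGCGG) and TATA boxes (TATAAA) on either strand.
MAP2 chr2:209579357-209579656 (plus strand): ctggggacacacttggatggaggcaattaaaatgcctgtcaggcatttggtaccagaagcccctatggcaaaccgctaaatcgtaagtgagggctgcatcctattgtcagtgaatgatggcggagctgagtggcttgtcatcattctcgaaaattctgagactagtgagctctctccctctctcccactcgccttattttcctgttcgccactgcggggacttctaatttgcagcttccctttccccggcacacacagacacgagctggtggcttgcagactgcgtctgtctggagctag
MAP1B chr5:72107225-72107524 (plus strand): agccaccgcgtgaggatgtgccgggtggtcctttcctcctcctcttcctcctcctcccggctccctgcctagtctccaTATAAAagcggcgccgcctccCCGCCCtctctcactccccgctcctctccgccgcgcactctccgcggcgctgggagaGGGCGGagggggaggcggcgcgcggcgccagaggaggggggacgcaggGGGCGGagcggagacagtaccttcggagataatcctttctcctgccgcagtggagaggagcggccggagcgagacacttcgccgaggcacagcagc
The MAP1B window shown held 3 GC boxes and 1 TATA box and was 70.0% G or C. Another MAP1B window, chr5:72179537-72179836, held 2 GC boxes and 1 TATA box and was 57.7% G or C. The MAP2 window shown held neither motif and was 52.3% G or C, and the other MAP2 windows were 45.3% and 40.0%. The median over all 35116 promoters was 58.7%. GC boxes occurred in 45.0% of all promoters and TATA boxes in 11.5%. RefSeq gave 19 windows for 9 of the genes, all but MAPT. Of these windows, 9 held a GC box, 3 a TATA box, 1 an E-box (CACGTG, in 7.26% of all promoters) and none a cyclic AMP response element (TGACGTCA, 1.85%). The left arm of the RE1 element, TTCAGCACC, at which REST represses neuronal genes, was in none of the 19 and in 0.376% of all promoters. The right arm, GGACAG, was in 4 of the 19 and in 20.5%. None of the 3 MAP2 windows held any of these motifs. Both strands were searched and each motif was counted on its own, so sites of different motifs could overlap. A match was counted wherever it lay in the window, whatever its distance from the start, and whether it works as an element was not tested.

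**Figure D2:**
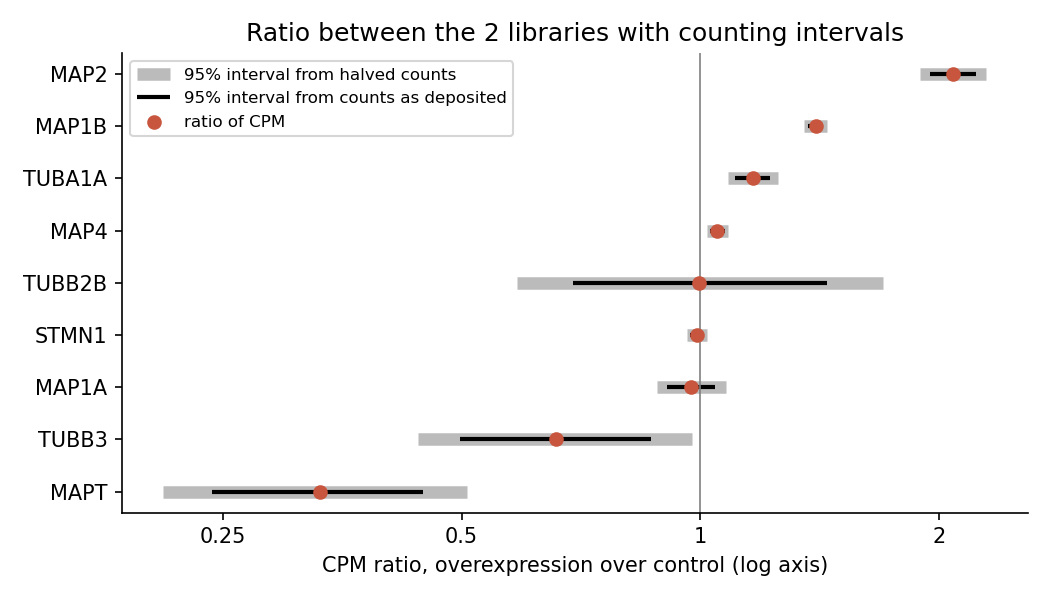
CPM ratio of overexpression over control (horizontal log axis) for the 9 listed genes, with the 95% counting interval from the counts as deposited (black) and from halved counts (grey); the vertical line is 1-fold. MAP2 at 2.08 and MAPT at 0.331 lie furthest from 1-fold, and the intervals of TUBB2B, STMN1 and MAP1A include it.

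Among the tubulins, TUBB3 was lower in the overexpression library. TUBB3 (ENSG00000258947, plus strand of chromosome 16 from 89921392 to 89938761) gave 128 counts (2.95 CPM) in the control against 93 (1.94 CPM) with IGF2BP3 overexpressed, 0.658 times the control level (0.498 to 0.866). From halved counts the interval was 0.441 to 0.975, close to 1-fold. Its log2 ratio of CPM plus 1, -0.43, was short of the 1.5-fold mark, since 1 CPM is large against these levels. TUBB2B (ENSG00000137285, minus strand of chromosome 6 from 3224261 to 3231730) had 59 counts in the control and 65 in the overexpression library, or 1.36 CPM in each, a ratio of 0.997 (0.690 to 1.44). At this depth a difference within those bounds was not detectable. PSMG4 overlaps TUBB2B by 328 bases on the opposite strand and had 600 and 662 counts, a ratio of 0.999 (0.893 to 1.12). MYLK4, a kinase gene 473295 bases away, had 40 and 155 counts. The part of either gene in the TUBB2B value was not tested.

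TUBA1A (ENSG00000167552, minus strand of chromosome 12 from 49184796 to 49189324), the alpha-tubulin of developing neurons, gave 2644 counts (61.0 CPM) in the control against 3401 (71.1 CPM) with IGF2BP3 overexpressed. Its ratio was 1.16 (1.11 to 1.23) and its log2 ratio 0.22. It overlaps 589 bases of TUBA1C on the opposite strand, and TUBA1C had a ratio of 1.01 (0.991 to 1.03).

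The neuronal-type isotypes made up little of either tubulin pool. TUBB3 was 0.121% of the summed FPKM of the beta-tubulins in the control and 0.0829% in the overexpression library. TUBB2B was 0.0991% and 0.103%. TUBB4B, the class IVb isotype, was 76.9% and 75.6%, TUBB6 18.7% and 19.4%, and TUBB2A 3.34% and 3.83%. TUBA1A was 8.35% of the alpha-tubulin FPKM in the control and 9.37% in the overexpression library, behind TUBA1C, at 45.4% and 44.2%, and TUBA1B, at 42.5% and 42.1%. These shares leave out TUBBP1, a beta-tubulin pseudogene named after its values were seen. They also leave out TUBB8B, at 3.06 FPKM in the control and 2.66 in the overexpression library, likewise named after its values were seen. TUBBP1 stood at 122 and 118 FPKM, beside 331 and 315 summed over the listed beta-tubulins, so counting it would lower every beta-tubulin share. TUBBP1 had 8664 and 9314 counts, while TUBB, the widespread class I gene that shares 21.2% of its words with it, had 6 and 11. Of the TUBB words, 25.6% occurred in any other annotated gene. Why TUBB had so few counts was not tested, and its place in the pool is not read from them.

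**Figure D3:**
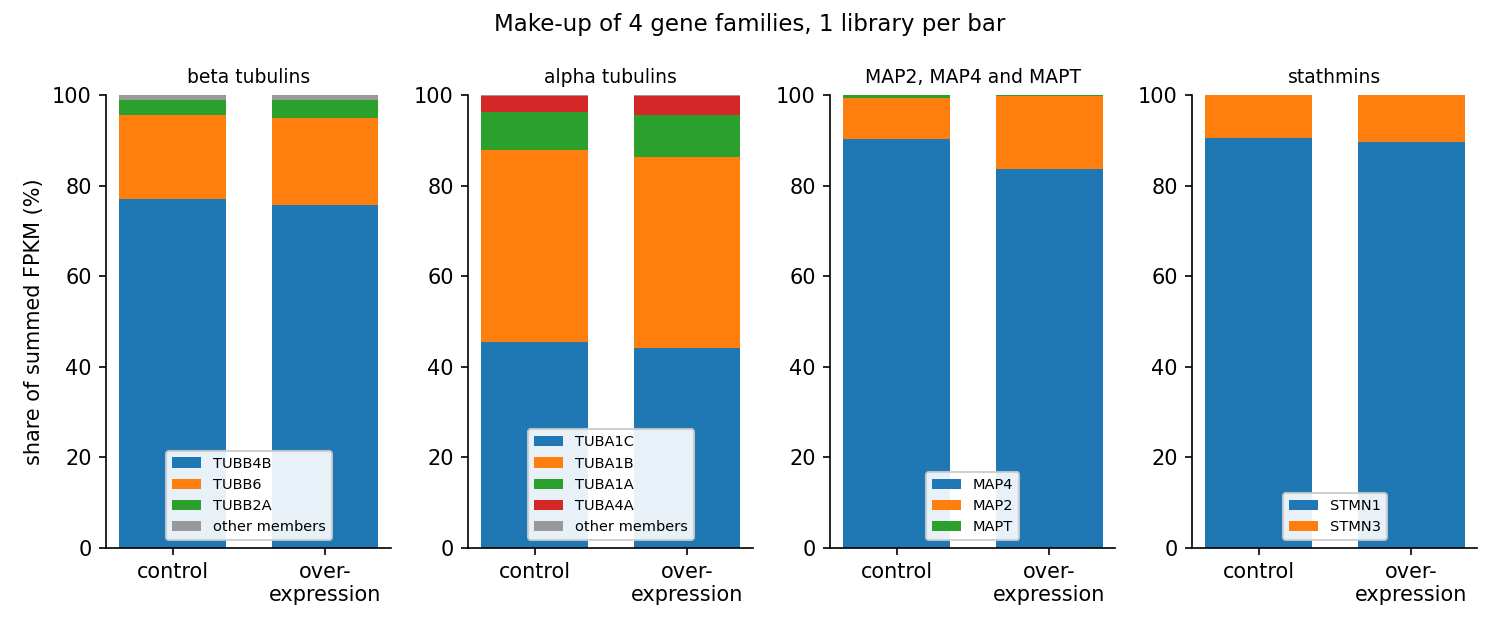
Share of the summed FPKM (vertical axis, percent) held by each gene of the beta-tubulins, the alpha-tubulins, the trio of MAP2, MAP4 and MAPT, and the stathmins, 1 bar per library. The beta-tubulin bars leave out the pseudogene TUBBP1 and TUBB8B. The MAP2 part of its bar goes from 8.86% to 16.2%, while TUBB4B goes from 76.9% to 75.6%, TUBA1C from 45.4% to 44.2% and STMN1 from 90.4% to 89.6%.

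STMN1 had the highest FPKM of the listed genes. STMN1 (ENSG00000117632, minus strand of chromosome 1 from 25884181 to 25906991), the stathmin of dividing cells, gave 17456 counts (403 CPM) in the control against 19098 (399 CPM) with IGF2BP3 overexpressed. Its ratio was 0.990 (0.970 to 1.01). STMN3, a neuronal-type stathmin, had 896 and 1073 counts and a ratio of 1.08 (0.991 to 1.19). STMN1 was 90.4% of the stathmin FPKM in the control and 89.6% in the overexpression library, and STMN2 and STMN4 were not among the listed genes. Of the relatives of DCX, the kinase DCLK2 had 720 and 848 counts and a ratio of 1.07 (0.964 to 1.18), and DCDC2 had 60 and 74. The other 4 listed genes of the doublecortin family were below the count minimum.

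Per gene length the order of levels in the control library was STMN1 at 64.7 FPKM, MAP4 at 24.3, MAP1B at 22.1, TUBA1A at 16.0, MAP1A at 3.33, MAP2 at 2.38, TUBB3 at 0.399, TUBB2B at 0.328 and MAPT at 0.206. In the overexpression library MAP1B, at 30.7, stood above MAP4, at 25.4. MAP2, at 4.92, stood above MAP1A, at 3.22, and TUBB2B, at 0.325, above TUBB3, at 0.261. The order of these beta-tubulins depends on gene length, which FPKM implies to be 7421 bases for TUBB3 and 4160 for TUBB2B. By counts TUBB3 was higher than TUBB2B in both libraries, 128 against 59 and 93 against 65. The places of STMN1, TUBA1A and MAPT were the same in both. With 1 library per group, no neighbours in this order could be tested against a spread.

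Of the 9 listed genes, 1, MAP2, was at least 1.5-fold higher and 1, MAPT, at least 1.5-fold lower on the scale of CPM plus 1. By the plain CPM ratio TUBB3 was also past that mark, 1.52-fold lower. Over all measured genes 1.66% were past the mark in either direction on the scale of CPM plus 1, 235 genes; with 0.1 CPM added the number was 748 and with 5 CPM it was 100. MAP2 and MAPT also passed 2-fold, as did 0.678% of all measured genes. MAP2 was short of 2-fold with 5 CPM added (0.94), as FPKM plus 1 (0.81) and with the length trend removed (0.96). The median log2 ratio of the 9 was -0.0022, beside 0.0042 over all 14157 measured genes. Of the 9, 4 were above 0 and 5 below, and 51.1% of all measured genes were above 0. The log2 fold changes in the authors' deposited table were 1.05 for MAP2, 0.47 for MAP1B, -0.61 for TUBB3 and -1.60 for MAPT.

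**Figure D4:**
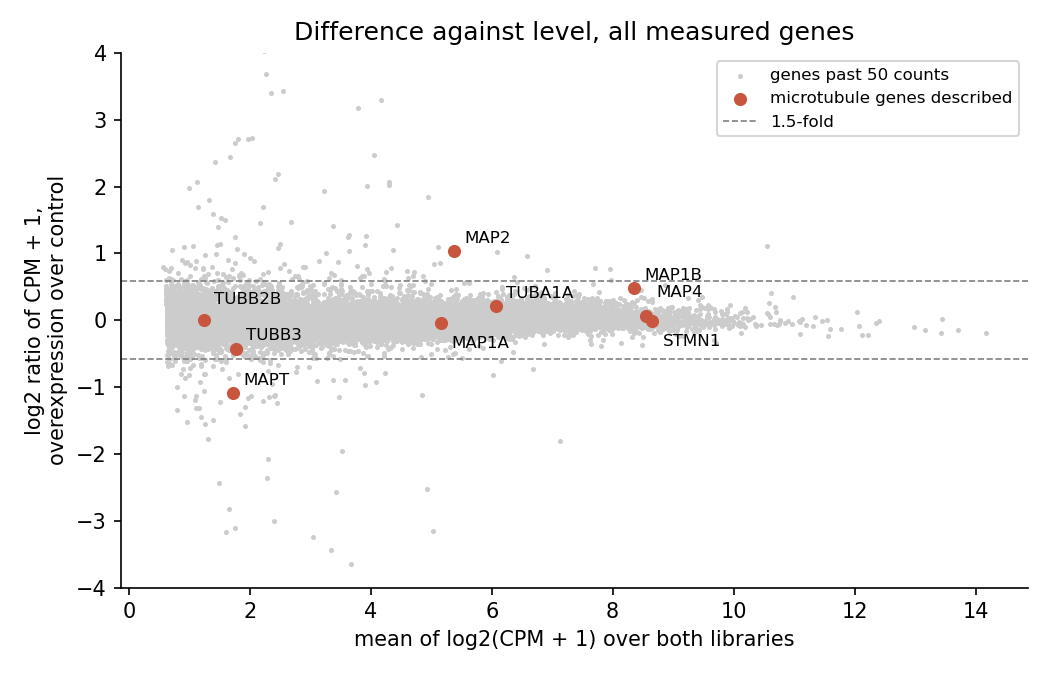
Overexpression over control as the log2 ratio of CPM plus 1 (vertical axis), against the mean of log2(CPM plus 1) over both libraries (horizontal axis) for all genes past 50 counts (grey) and the 9 listed genes (red, named); dashed lines are 1.5-fold, and 3 genes lie beyond the vertical limits of 4. MAP2 lies above the upper line, MAPT below the lower one, and MAP1B just inside.

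The rest of the microtubule system was read from lists of genes taken whole. Of the 14 structural microtubule-associated proteins, 9 were measured, with a median log2 ratio of -0.02; MAP2 was the only one at least 1.5-fold higher and MAPT the only one at least 1.5-fold lower. No measured gene of the other tubulin, stathmin, doublecortin, modifying, folding, plus-end, severing, kinase or motor lists passed 1.5-fold in either direction on the scale of CPM plus 1. This depends on the pseudocount for genes of low count: TUBB1 had a CPM ratio of 2.05 (1.23 to 3.50) and AGBL2 one of 2.39 (1.26 to 4.79), and with 0.1 CPM added 1 beta-tubulin, TUBB1, and 1 modifying enzyme, AGBL2, passed. The 5 measured alpha-tubulins were all above 0, as were 51.1% of all measured genes, with a median of 0.14 and TUBA4A at 0.22. That median was the value of TUBA8, with 24 and 34 counts and a CPM ratio interval of 0.738 to 2.26, which includes 1-fold. The most abundant, TUBA1C and TUBA1B, stood at 0.02 and 0.04. With 5 CPM added the list median was 0.04. The 8 measured beta-tubulins had a median of -0.0065, with TUBB1, the platelet isotype, at 0.45 from 23 and 52 counts, and TUBB4A at 0.28. The 8 measured genes for gamma-, delta- and epsilon-tubulin and for proteins of the gamma-tubulin complex, which nucleates microtubules, had a median of -0.08, with TUBG2 at -0.31, TUBD1 at 0.16 and TUBE1 at -0.16.

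Enzymes that modify tubulin had a median of 0.07 over 16 measured genes, 12 of them above 0, as were 51.1% of all measured genes. AGBL2, a carboxypeptidase of the deglutamylase family, stood at 0.42 from 14 and 37 counts, its relative AGBL3 at 0.28 and VASH2, a tubulin carboxypeptidase, at 0.24. The folding cofactors and plus-end proteins had a median of 0.00045 over 14 genes, which turned to -0.0086 when libraries were scaled by their totals. In that list the plus-end protein MAPRE2 stood at 0.25, CLIP1 at 0.14 and the cofactor TBCC at -0.11. The 8 severing genes had a median of 0.06, with KATNAL2 at 0.18 and KATNAL1 at 0.13. Of 12 measured kinases of microtubule-associated proteins and their activators, MARK1, which detaches them from microtubules, was at -0.40, TAOK1 at 0.27 and MAPK9 at 0.15, with a list median of 0.04. The 17 motor genes had a median of 0.04, with the kinesins KIF21A at 0.32, KIF5C at -0.30 and KIF1A at -0.24.

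**Figure D5:**
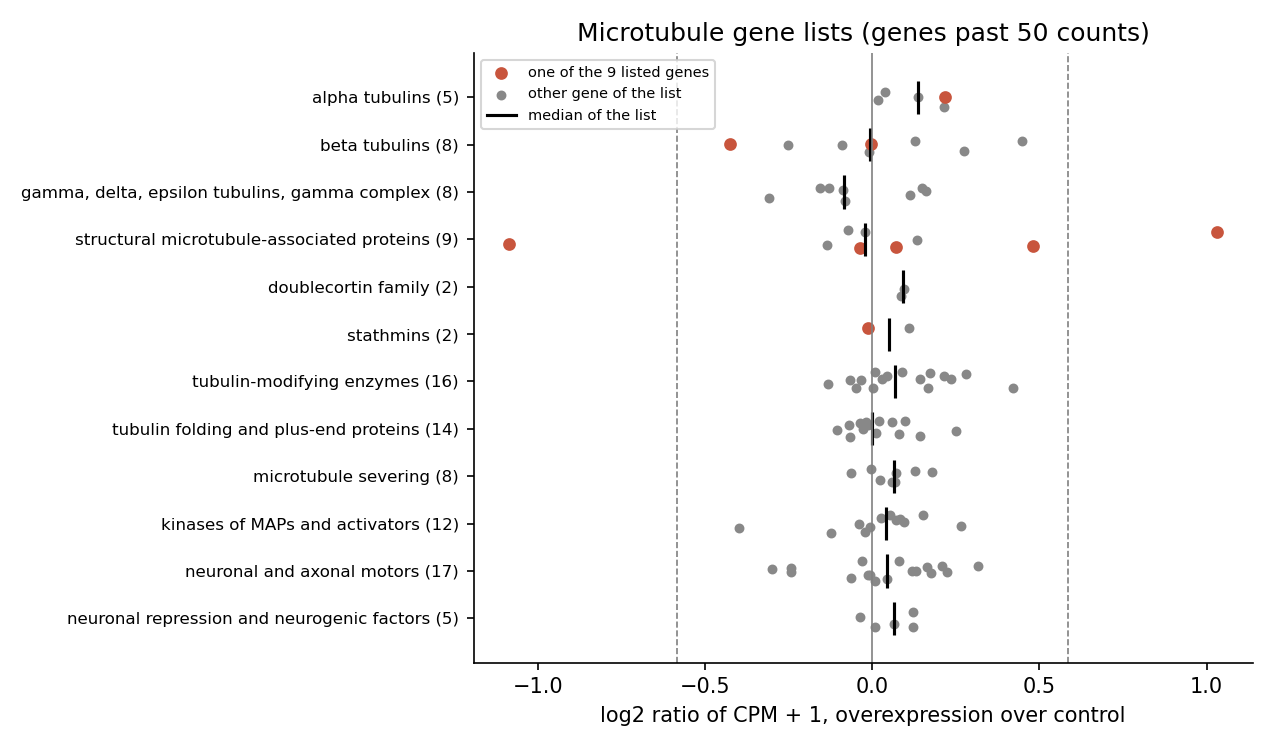
Overexpression over control as the log2 ratio of CPM plus 1 (horizontal axis), for each gene past 50 counts in 12 lists (rows, with the number measured); red points are the 9 listed genes, grey points other genes, black bars medians, dashed lines 1.5-fold. Apart from MAP2 and MAPT in the structural list, every point lies between the dashed lines on this scale.

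Neuronal markers outside the microtubule system were partly abundant, and none of those measured passed 1.5-fold on the scale of CPM plus 1. L1CAM, with 152 and 102 counts, had a CPM ratio of 0.607 (0.468 to 0.786) and passed when 0.1 CPM was added instead. Of 21 chosen, 16 were listed and 4 reached 10 CPM: the neurofilament heavy chain NEFH at 128 FPKM in the control and 132 in the overexpression library, the internexin INA at 135 and 118, the hydrolase UCHL1 at 95.3 and 93.7, and the enolase ENO2 at 42.8 and 38.9. Over the 8 measured the median log2 ratio was -0.16. Of these, 7 were below 0, whereas 51.1% of all measured genes were above 0. The furthest from 0 were the adhesion molecule L1CAM at -0.53, the synaptic vesicle protein SYP at -0.39 and the syntaxin STX1A at -0.27. The CPM ratio intervals of UCHL1 (0.962 to 1.02) and SYN1 (0.628 to 1.30) included 1-fold, and those of the other measured markers did not. The summed level of all 16 was 1335 CPM in the control and 1278 CPM in the overexpression library. NEFM, SNAP25, ELAVL2, ELAVL4 and GAP43 were not among the listed genes. Among those below the count minimum, RBFOX3, the NeuN gene, had 18 and 10 counts, a ratio of 0.503 (0.207 to 1.15). NCAM1 went the other way, with 6 and 28 counts and a ratio of 4.22 (1.72 to 12.5). Of the neural progenitor and glial markers, NES, the nestin filament gene, stood at 0.35, PAX6 at 0.18 and MBP at 0.01, and 8 of the 11 listed were below 10 CPM in both libraries. REST, the repressor of neuronal genes, was at 0.12, its partner RCOR1 at 0.06 and SIN3A at 0.12.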

How the data were processed

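The authors deposited whole-number counts per gene, FPKM values and a log2 fold change, per the file headers. Per the labels' protocols, mRNA was captured on oligo(dT) beads, dUTP was incorporated and the libraries were amplified by PCR. The protocols mention no molecular identifiers, and counts of copies are not counts of molecules. The submitters' processing notes name GRCh38; which aligner, counter, strand setting and annotation were used is not given in the sources used here. The gene length implied by count and FPKM was whole, to a tolerance of 0.01, for 99.99% of genes. Among counts of 1 to 20, 64.1% were even in the control and 63.3% in the overexpression library, so intervals from halved counts are given too.

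Libraries were scaled by TMM (edgeR 4.0.16, R 4.3.3), and a difference was the log2 ratio of CPM plus 1 (a CPM being a count per 1000000 scaled counts), computed over all genes. Genes needed 50 counts over both libraries, and 1.5-fold was the mark for a difference. With 1 library per group no p-value was computed. Depth is given in the report, and precision as exact counting intervals. The members and lists were chosen with earlier results of these data known. The genes named were the 10 members, the 3 measured genes furthest from 0 in each list, the 3 highest in FPKM in the tubulin, MAP, stathmin and doublecortin lists and the 3 nearest to MAP2; not all of these are printed. TUBBP1, TUBB8B, TUBB, NSF, MYLK4, PSMG4 and marker genes given by their level, interval or absence were named after their values were seen. Positions, overlaps and words came from GENCODE release 29, which is on the same build. Alternatives were library totals, DESeq2 1.42.0 size factors, pseudocounts of 0.1 and 5 CPM, FPKM plus 1, count minimums of 10, 200 or none, a fold of 2 and, chosen after seeing the data, removal of the median of the 500 genes nearest in length. The ratio and its interval were run on simulated Poisson counts, which hold only the counting error that the interval assumes. This could check the computation, but not replicate spread or the surplus of even counts. Python 3.11.15, numpy 2.4.6, pandas 2.3.3, scipy 1.17.1 and matplotlib 3.10.9 were used.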

Additional observations from a re-analysis of the deposited data

How the results depend on the processing

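MAP2 kept a log2 ratio of at least 1.5-fold under all 6 alternatives that bear on it, from 0.81 as FPKM plus 1 to 1.05 with a pseudocount of 0.1 CPM; on the FPKM scale the added 1 is large against 2.38 FPKM. The count of members at least 1.5-fold lower went from 1 to 0 with a pseudocount of 5 CPM and with FPKM plus 1, where MAPT stood at -0.49 and -0.18; it was 1 under the other 8 alternatives, one of which set the mark at 2-fold. The count of members at least 1.5-fold higher was 1 throughout. At 2-fold, MAP2 was short of the mark with a pseudocount of 5 CPM (0.94), as FPKM plus 1 and with the length trend removed (0.96). The number of all measured genes past 1.5-fold, 235, went to 748 and 100 with pseudocounts of 0.1 and 5 CPM, to 126 as FPKM plus 1 and to 156 with a count minimum of 200. The median of the 9 members was near 0 under every alternative and changed sign with DESeq2 size factors (0.00076), with a count minimum of 200, which 8 passed (0.029) and with the length trend removed (0.011). MAP1B ranged from 0.42 to 0.49 and TUBB3 from -0.58 to -0.15, and neither passed 1.5-fold under any of them. No paired analysis was possible because each group has 1 library. Low counts limit MAPT, TUBB3 and TUBB2B.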
